A study of Mus musculus with 9 samples.

Results

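The Bcl2 family of cell death regulators was examined in the lambdoidal junction of the mouse embryo, the place where the nasal prominences (medial and lateral) and the maxillary prominence meet and fuse to form the upper lip and primary palate. The genes were taken by name from the deposited table, and all 10 were found among its 54532 genes. They were the pro-survival genes Bcl2, Bcl2l1 and Mcl1, the effector genes Bax and Bak1, and the BH3-only genes Bid, Bcl2l11, Bbc3, Pmaip1 and Bmf. RNA was sequenced from C57BL/6J embryos, with no treatment or engineered allele in any group, at embryonic day 10.5 (E10.5), E11.5 and E12.5. Each stage had 3 libraries, each made from the pooled lambdoidal junction tissue of many embryos, so differences between single embryos were averaged within a library. The tissue was taken whole, and epithelium, mesenchyme, blood and nearby neural tissue were sequenced together. In such bulk samples, fewer cells of a type and less RNA per cell cannot be told apart.

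Proteins of the Bcl2 family decide whether the outer membrane of the mitochondrion stays sealed. Bax and Bak1 form the pores through which cytochrome c leaves to start the caspase cascade, the pro-survival proteins hold them and the BH3-only proteins in check, and the BH3-only proteins respond to loss of growth factors, DNA damage or detachment by binding pro-survival proteins or by activating the effectors directly. In the fusing face, cell death is known in the epithelial seam between the prominences. Much of the control of these proteins lies after transcription, in splicing, cleavage, phosphorylation and protein turnover, which read counts per gene do not measure.

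Over the 3 stages, 5 of the 10 genes passed the test, where 28.3% of all genes did, and the largest change was a transient rise of a single BH3-only gene. Pmaip1, which encodes Noxa, was upregulated 2.95-fold at E11.5 and fell to 0.378 of that level at E12.5. Bcl2 rose and Bcl2l11, which encodes the BH3-only protein Bim, fell from E10.5 to E12.5. The call of Bcl2 was lost in 4 of the 6 fits with a library left out, while that of Bcl2l11 was kept in all 6. Bcl2l1 and Bbc3 differed in the test of all 3 stages, with no single pair of stages past the threshold, and these calls were lost in 7 and 6 of the 9 fits with a library left out. Mcl1, Bax, Bak1, Bid and Bmf did not pass any of these tests.

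Promoter sequences are shown for the genes that passed the test of the 3 stages and whose window holds a match to one of the motifs described, because their RNA levels differed by stage. RefSeq sequence of build GRCm38.p6 gave 16 windows for 9 of the 10 genes, each reaching from 250 bases before to 50 bases after a transcription start, and the 250 bases before the start are printed, 5′ to 3′ on the strand of the gene. For Bcl2 (chr1:106714291-106714540, minus strand), capitals mark matches to the GC box GGGCGG on either strand, which begin 213, 189, 178, 158, 48, 37 and 9 bases before the start. For Bcl2l11 (chr2:128125788-128126037, plus strand) and Bbc3 (chr7:16310011-16310260, plus strand), capitals mark the FoxO core TGTTTAC on either strand. It begins 227 and 167 bases before the start. Bbc3 has 3 starts listed, and Bcl2l11 also has more than the start shown. Only the window with the FoxO core is printed for each of these genes, and GC boxes in it are left in lower case. Their other windows hold GC boxes and no FoxO core.
Bcl2: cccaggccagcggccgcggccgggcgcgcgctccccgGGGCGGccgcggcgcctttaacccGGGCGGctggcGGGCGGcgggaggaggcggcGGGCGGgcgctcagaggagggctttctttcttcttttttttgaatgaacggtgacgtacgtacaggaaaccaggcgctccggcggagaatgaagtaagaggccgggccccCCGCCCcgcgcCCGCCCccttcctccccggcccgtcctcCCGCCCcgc
Bcl2l11: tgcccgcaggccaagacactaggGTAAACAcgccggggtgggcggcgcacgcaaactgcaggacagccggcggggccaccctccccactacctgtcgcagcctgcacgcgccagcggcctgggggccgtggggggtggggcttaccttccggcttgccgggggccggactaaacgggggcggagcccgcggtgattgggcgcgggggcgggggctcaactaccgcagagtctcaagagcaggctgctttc
Bbc3: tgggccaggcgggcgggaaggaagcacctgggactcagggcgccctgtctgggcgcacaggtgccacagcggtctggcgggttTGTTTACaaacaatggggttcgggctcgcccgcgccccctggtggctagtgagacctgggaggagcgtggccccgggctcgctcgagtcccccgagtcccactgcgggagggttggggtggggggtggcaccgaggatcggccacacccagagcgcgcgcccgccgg
The FoxO core was found in 3.65% of the 32851 windows of this length in the genome and in 2 of the 16 windows of the family, those of Bcl2l11 and Bbc3 printed here. The GC box was found in 35.7% of all windows and in 10 of the 16. The p53 half-site of 10 bases, which is not a full p53 site, was found in 8.36% of all windows and in 2 of the 16, in Bax and Bmf. A match describes these letters only, and whether a factor binds there was not measured.

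The libraries held between 16581009 and 20836804 counts assigned to genes. The family was well covered, from 63 counts for Bbc3 in one E11.5 library to 4931 counts for Mcl1 in another, and the 10 genes passed the filter on low counts in every fit. The facial mesenchyme genes that define the tissue were present in every library, with a summed level of 1140 to 1920 CPM (counts scaled to the size of the library) at E10.5, 2585 to 2756 CPM at E11.5 and 2630 to 2944 CPM at E12.5. Genes of the forebrain and eye field went the other way, from 295 to 422 CPM at E10.5 down to 121 to 137 CPM at E11.5 and 134 to 156 CPM at E12.5. E10.5 replicate 3 stood apart from the other 2 libraries of its stage. It had the lowest sum of facial mesenchyme genes, 1140 against 1917 and 1920 CPM, and of 6 endothelial genes, 108 against 277 and 270.0 CPM, and the highest of 8 surface epithelium genes, 640 against 368 and 408 CPM. Its deviation from their mean went with the share of GC in a gene (across genes, rho = -0.55 by Spearman). The values of the other 2 libraries, 0.44 and 0.47, were each taken against a mean that includes replicate 3. On the log2 scale, Bbc3 (65.2% GC) was 0.89 lower in replicate 3 and Bid (51.3% GC) 0.70 higher. Pmaip1, with the lowest share of GC among the 10 genes (42.1%), was 0.25 lower there. Results that rest on this library are given with and without it.

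Levels were compared between genes per length, as FPKM, which divide the counts by gene length and library size. Mcl1, a pro-survival gene whose protein is made and destroyed quickly, had the highest mean level over the 9 libraries, at 68.3 FPKM. Bax followed at 39.4 FPKM, and Bcl2l1 and Bak1 at 19.95 and 19.4 FPKM, whose ranges overlapped each other but not that of Bax. Bmf stood at 13.3 FPKM and Pmaip1 at 11.04 FPKM, and Pmaip1 moved from below Bmf at E10.5 to above it at E11.5. At the lower end, Bcl2l11 at 6.54 FPKM was followed by Bcl2 at 3.75, Bid at 3.36 and Bbc3 at 3.13 FPKM, and these 4 ranges overlapped. The gene that names the family was thus one of its less abundant transcripts in this tissue, 2.45 to 5.04 FPKM in every library. The pro-survival genes together held 46.01% to 52.4% of the summed FPKM of the 10 genes in the 9 libraries. The share of the BH3-only genes was 18.3% to 20.5% in the E10.5 libraries, 23.2% to 24.6% at E11.5 and 15.1% to 18.9% at E12.5, and the E11.5 libraries overlapped neither of the other stages. Within it, Pmaip1 alone held 2.6% to 4.57%, 9.5% to 11.1% and 3.17% to 4.55% at the 3 stages. From E10.5 to E11.5, the shares of Bcl2l11 and Bbc3 were lower and that of Bmf higher without overlap, and that of Bid overlapped.

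**Figure D1:**
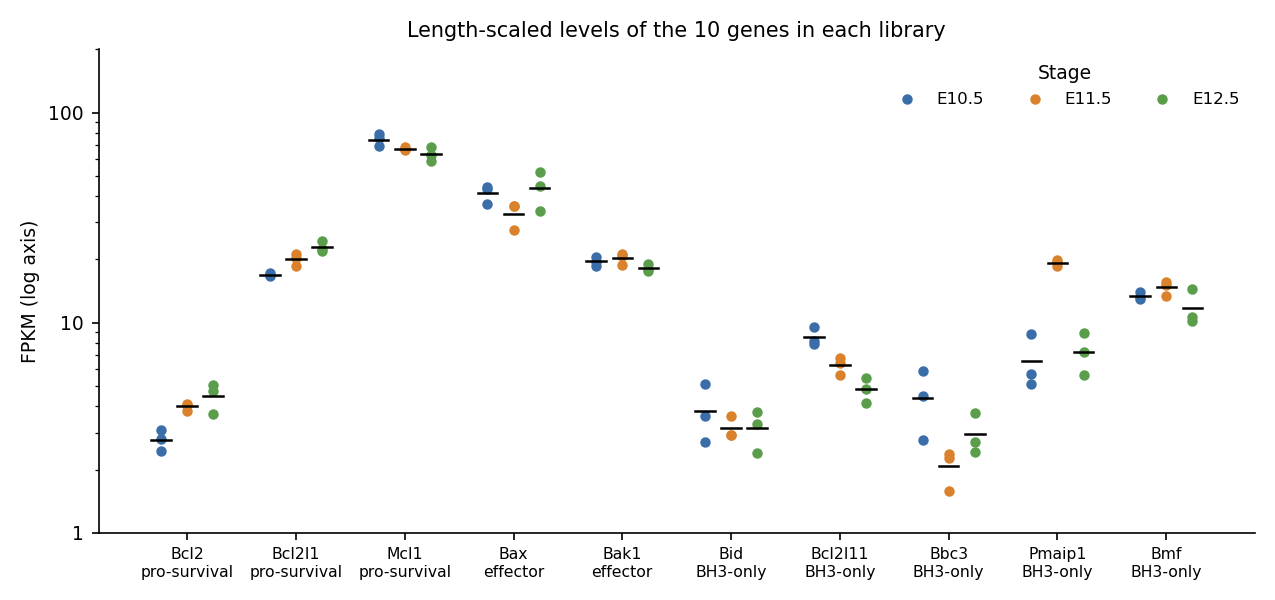
FPKM (log axis) of the 10 genes in each library, with points coloured by stage and black bars at the mean of the 3 libraries of a stage. Mcl1 lies highest, between 58.7 and 78.6 FPKM, and Pmaip1 is the only gene whose E11.5 libraries lie far from both other stages.

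Each pair of stages was tested over all genes by the quasi-likelihood test of edgeR, with Benjamini-Hochberg adjustment. A gene is called changed where its adjusted p-value was 0.05 or lower, and a differentially expressed gene (DEG) also changed by 1 or more on the log2 scale. In E11.5 vs. E10.5, 2 of the 10 genes were called, Pmaip1 and Bcl2, both higher, where 11.8% of all genes tested were called, 6.19% higher and 5.58% lower. Pmaip1 was a DEG, as were 6.07% of all genes. In E12.5 vs. E11.5, Pmaip1 alone was called, lower and as a DEG, against 12.2% of all genes called, 7.61% higher, 4.57% lower and 5.1% as DEGs. In E12.5 vs. E10.5, Bcl2 was higher and Bcl2l11 lower, and none was a DEG, where 24.6% of all genes were called, 14.0% higher and 10.5% lower, and 15.0% were DEGs. In the test of the 3 stages together, 5 of the 10 were called, Bcl2, Bcl2l1, Bcl2l11, Bbc3 and Pmaip1, against 28.3% of all genes. Nothing particular to the family is read from these counts.

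The median log2 fold change of the 10 genes was -0.05, -0.04 and -0.13 in the 3 comparisons in the same order, next to -0.03, 0.02 and -0.01 over all genes tested. The libraries of both stages did not overlap for 7 of the 10 genes in E11.5 vs. E10.5 (36.7% of all genes), for 4 from E11.5 to E12.5 (35.3%) and for 4 across the whole interval (42.4%). At an unadjusted p-value under 0.05, 5, 3 and 3 of the 10 genes passed, next to 27.9%, 29.6% and 37.2% of all genes. E10.5 replicate 3 bore on the first of these comparisons. Without it, 6 genes were called in E11.5 vs. E10.5, with Bcl2l1 higher and Bax, Bcl2l11 and Bbc3 lower beside Pmaip1 and Bcl2, where that fit called 39.6% of all genes. Without it, 4 were called across the whole interval, Bcl2 and Bcl2l1 higher and Bcl2l11 and Bbc3 lower, next to 30.1% of all genes. Without E12.5 replicate 2, 4 were called in E12.5 vs. E11.5, with Bax higher and Bcl2l11, Pmaip1 and Bmf lower, next to 30.8% of all genes.

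**Figure D2:**
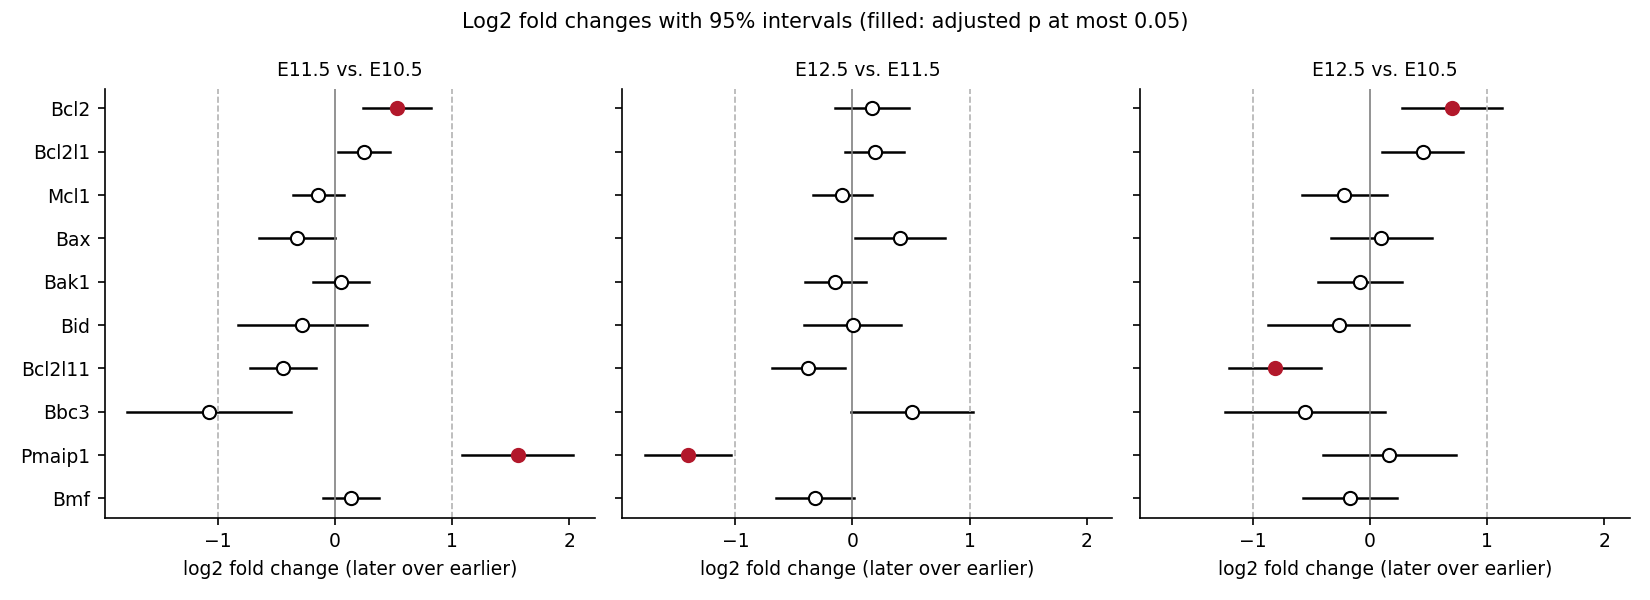
Log2 fold change (later stage over earlier) for the 10 genes in the 3 comparisons, with 95% intervals, where filled points passed an adjusted p-value of 0.05 and dashed lines mark a log2 fold change of 1 either way. Pmaip1 lies at 1.56 and then at -1.40, and its interval from E10.5 to E12.5, -0.40 to 0.73, spans 0.

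Among the pro-survival genes, Bcl2 rose and the more abundant Mcl1 passed no test. The Bcl2 protein sits on the mitochondrial and endoplasmic reticulum membranes and sequesters BH3-only proteins. Its gene (ENSMUSG00000057329, chr1:106538178-106714274, mm10) was at 26.1, 22.6 and 28.4 CPM in the 3 E10.5 libraries, at 37.6, 35.3 and 38.1 CPM at E11.5, and at 44.2, 46.7 and 34.1 CPM at E12.5. All 3 E10.5 libraries lay below every later library, while the E11.5 and E12.5 libraries overlapped, because of a single low E12.5 library. The log2 fold change was 0.53 ± 0.13 (SE, n = 3 per stage) in E11.5 vs. E10.5 with an edgeR adjusted p-value of 0.0332. In E12.5 vs. E10.5 it was 0.71 ± 0.19 with an edgeR adjusted p-value of 0.0226. Between E11.5 and E12.5 it was 0.17, with a 95% interval of -0.15 to 0.48. These calls rested on all the libraries being present. The first was lost in 5 of the 6 fits with a library left out, all but the fit without E10.5 replicate 3, with adjusted p-values from edgeR up to 0.153, and the second in 4 of 6, all but those without E10.5 replicate 3 or E12.5 replicate 3, up to 0.107, while the log2 fold change stayed between 0.44 and 0.83. An antisense gene on the other strand, D630008O14Rik, overlaps 6.09% of the exonic bases of Bcl2, and whether the counting used strand was not stated.

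Bcl2l1 encodes Bcl-xL, the pro-survival protein that keeps many neurons and red cell precursors alive, and by splicing also the shorter Bcl-xS, which promotes death. Its level was 78.5, 79.1 and 77.5 CPM at E10.5, 86.3, 94.5 and 98.5 CPM at E11.5, and 105, 101.5 and 113 CPM at E12.5. The libraries of the 3 stages did not overlap, and the order of the stages was the same as for Bcl2. The log2 differences were small, at 0.25 ± 0.10, 0.19 ± 0.12 and 0.45 ± 0.16 (SE, n = 3 per stage) for the first step, the second step and the whole interval. The last had an adjusted p-value of 0.0573 and the 3 stages together 0.0400, by edgeR's quasi-likelihood test. That call was lost in 7 of the 9 fits with a library left out, all but those without E10.5 replicate 3 or E12.5 replicate 2, up to 0.118. Counts per gene do not separate the 2 splice forms.

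Mcl1 ranged from 241 to 271 CPM at E10.5, from 229 to 237 CPM at E11.5 and from 206 to 236 CPM at E12.5. The E10.5 libraries lay above the others, but the log2 fold change from E10.5 to E12.5 was only -0.22, with a 95% interval of -0.58 to 0.14 and an adjusted p-value of 0.367 from edgeR. Of the regulators of Mcl1 protein turnover, the deubiquitinase Usp9x fell from E10.5 to E12.5, by 0.99 on the log2 scale (edgeR adjusted p-value of 0.0482). Its E12.5 libraries spread from 78.6 to 201 CPM, and the test of the 3 stages did not call it. The ubiquitin ligase genes Huwe1 and Fbxw7 were not called in any comparison.

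Neither effector gene was called in any comparison. Bax, whose protein moves from the cytosol to the mitochondrion when it is activated, was at 70.8, 68.8 and 58.0 CPM at E10.5, at 43.7, 56.9 and 57.0 CPM at E11.5, and at 72.5, 54.0 and 83.4 CPM at E12.5. The E11.5 libraries were the lowest as a group and lay below all E10.5 libraries, but E12.5 spread over nearly the whole range. The log2 fold change was -0.32 ± 0.14 in E11.5 vs. E10.5 (edgeR adjusted p-value of 0.181) and 0.41 ± 0.17 in E12.5 vs. E11.5 (edgeR adjusted p-value of 0.146, SE, n = 3 per stage). Bak1, whose protein resides in the outer mitochondrial membrane, varied little. All 9 libraries lay between 43.0 and 51.8 CPM, and the largest of its 3 log2 differences was -0.15, with a 95% interval of -0.41 to 0.11. Exons of Ggnbp1 on the opposite strand overlap 25.5% of the exonic bases of Bak1, and a same-strand gene, Gm45808, overlaps 12.2% of those of Bax, so reads there could be assigned to either or to neither.

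**Figure D3:**
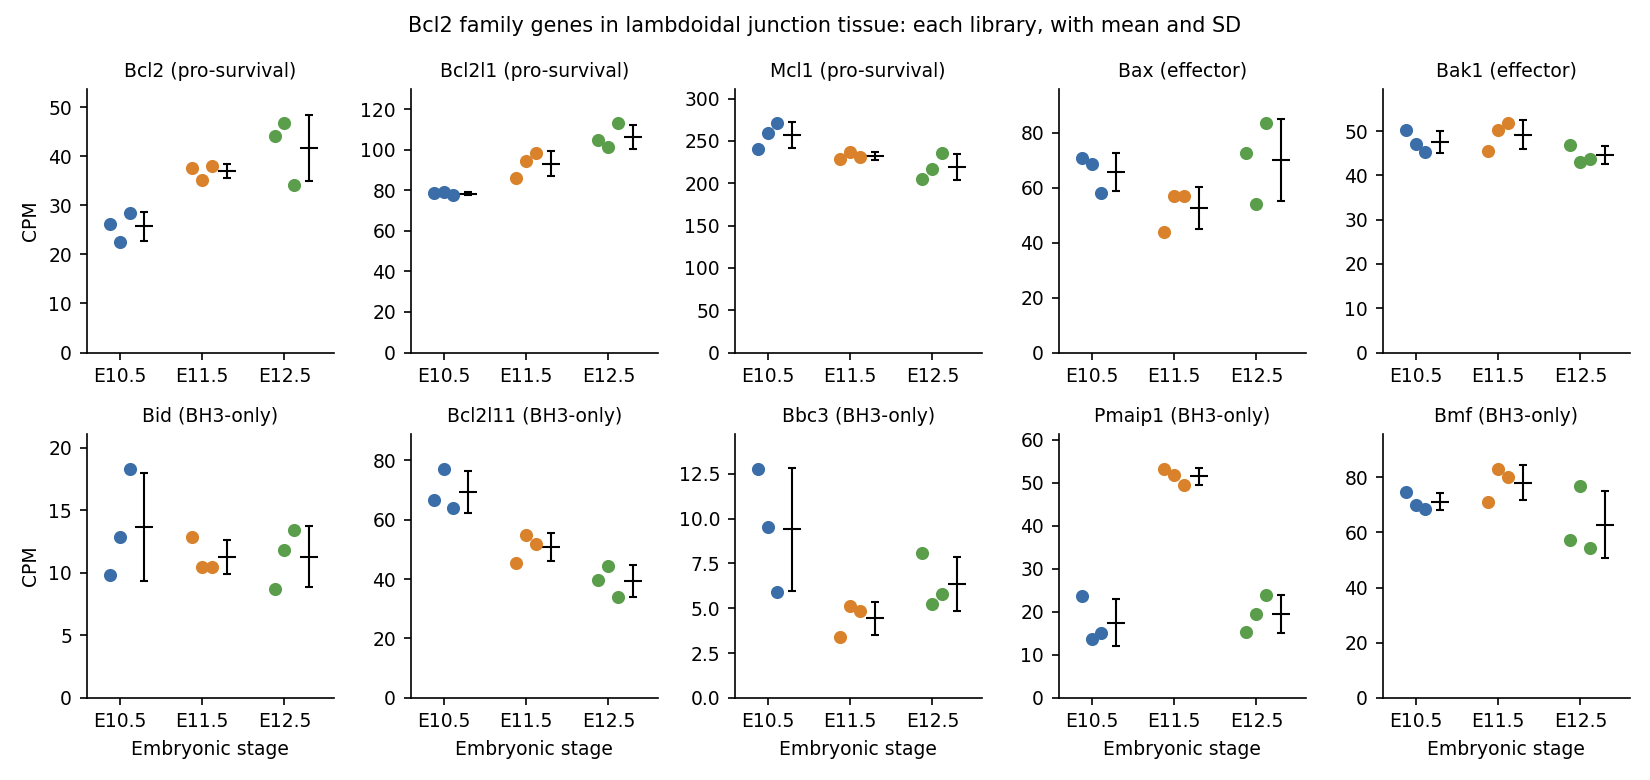
CPM of the 10 genes in each of the 9 libraries (points, by stage), with the mean and SD of the 3 libraries to the right of each group, and each panel starting at 0. Pmaip1 is the only panel in which one stage, E11.5 at 49.5 to 53.3 CPM, lies more than 2-fold above all libraries of the other stages.

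The BH3-only genes went in different directions. Pmaip1 (ENSMUSG00000024521, chr18:66458604-66465550, mm10) encodes Noxa, a small protein first described as a p53 target, which binds chiefly Mcl1 and sends it to the proteasome. Its level was 23.8, 13.6 and 15.2 CPM at E10.5, 53.3, 51.8 and 49.5 CPM at E11.5, and 15.2, 19.5 and 23.9 CPM at E12.5, from 235 to 1077 counts per library. The E11.5 libraries were close to one another and far above all 6 others, which overlapped between E10.5 and E12.5. The log2 fold change was 1.56 ± 0.20 (SE, n = 3 per stage) in E11.5 vs. E10.5, with an edgeR adjusted p-value of 0.00372. In E12.5 vs. E11.5 it was -1.40 ± 0.17, with an edgeR adjusted p-value of 4.6e-04, a fall to 0.378 of the E11.5 level. Across the whole interval it was 0.17, with a 95% interval of -0.40 to 0.73.

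Both changes of Pmaip1 passed the threshold under every other normalization, filter and model tried and in every fit that left out 1 library, with log2 fold changes of 1.40 to 1.84 and of -1.58 to -1.25 in the latter. The summed level of 5 erythroid genes was also highest at E11.5. The means of Klf1, Alas2 and Slc4a1 were highest at that stage too, that of Gata1 at E10.5 and that of Hbb-bt at E12.5. The sum (Gata1, Klf1, Alas2, Slc4a1 and Hbb-bt together) was 87.9 to 159 CPM at E10.5, 204 to 234 CPM at E11.5 and 143 to 179.8 CPM at E12.5, and none of them was at 0 throughout a stage. Only Hbb-bt of the 5 was called in E11.5 vs. E10.5, as higher. Without being called, Alas2 went from 25.0 to 34.1 CPM at E10.5 to 35.5 to 40.8 CPM at E11.5. Slc4a1, also not called, went from 43.8 to 104 CPM to 117.5 to 129 CPM, and the libraries of Gata1 and Klf1 overlapped. In E12.5 vs. E11.5, 4 were called lower and Hbb-bt higher. The part of red cells in the Pmaip1 result was not tested. Over the 9 libraries, the genes whose log2 CPM was most like that of Pmaip1 were Bdnf (Pearson's r = 0.977), Fam107b (0.960), Tmem220 (0.960), the processed pseudogene Gm19040 (0.944) and Calb2 (0.941), picked for this likeness among the genes that passed the filter over the 3 stages and given as a description. Bdnf, a nerve growth factor relative, had mean levels of 8.01, 14.3 and 8.15 CPM at the 3 stages, and Calb2, which encodes the calcium binding protein calretinin, 1.03, 6.30 and 1.70 CPM.

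Bcl2l11 encodes Bim, which binds all the pro-survival proteins and is induced when growth factors are withdrawn. Its gene (ENSMUSG00000027381, chr2:128126038-128162547, mm10) was at 66.8, 77.2 and 63.9 CPM at E10.5, at 45.6, 55.0 and 51.9 CPM at E11.5, and at 39.7, 44.5 and 33.8 CPM at E12.5. The 3 stages did not overlap at any step, and the order was the reverse of that of Bcl2l1. The log2 fold change from E10.5 to E12.5 was -0.81 ± 0.18 (SE, n = 3 per stage), with an edgeR adjusted p-value of 0.00791, and it passed in every other setting and every fit that left out 1 library. The single steps were -0.44 ± 0.12 (edgeR adjusted p-value of 0.0515) and -0.38 ± 0.14 (edgeR adjusted p-value of 0.105). The first step lay near the threshold. It passed with DESeq2 at 0.0351, and without E10.5 replicate 3 at 0.00128 with edgeR. Bim is made in splice forms that differ in strength, which these counts do not separate. Genes of facial mesenchyme rose and genes of the forebrain and eye field fell over the same stages, with the sums given above, and their part in the changes of Bcl2, Bcl2l1 and Bcl2l11 was not tested.

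Bbc3 encodes Puma, a potent BH3-only protein and p53 target, and had the lowest mean FPKM of the family. It was at 12.8, 9.52 and 5.88 CPM at E10.5, at 3.39, 5.10 and 4.85 CPM at E11.5, and at 8.06, 5.23 and 5.79 CPM at E12.5. The E11.5 libraries were the lowest, although E10.5 replicate 3 came close to them, and E10.5 and E12.5 overlapped. The log2 fold change was -1.07 ± 0.30 (SE, n = 3 per stage) in E11.5 vs. E10.5 with an edgeR adjusted p-value of 0.0581, and the 3 stages together gave 0.0382 by edgeR, a call lost in 6 of the 9 fits with a library left out (up to 0.142), all but those without E10.5 replicate 3, E12.5 replicate 1 or E12.5 replicate 2. The pairwise result passed in 5 of the 10 other settings, and E10.5 replicate 3 decided it among the libraries. Without it the log2 fold change was -1.31 and the edgeR adjusted p-value 3.07e-04, and with an offset for GC content in all 6 libraries they were -0.92 and 0.0118. Both p53-linked BH3-only genes had their extreme at E11.5, Pmaip1 its highest and Bbc3 its lowest level.

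Bid and Bmf were not called in any comparison. Bid, which caspase 8 cleaves to carry a death receptor signal to the mitochondrion, ranged from 8.68 to 18.3 CPM, with its lowest library at E12.5 and its highest, E10.5 replicate 3, at E10.5. Its 3 stages overlapped one another, and 17.7% of its exonic bases are shared with Bcl2l13 on the opposite strand. Bmf, a BH3-only protein tied to the cytoskeleton and released on detachment, ranged from 54.3 to 83.2 CPM, and its log2 fold changes were 0.14 to E11.5, -0.32 from there to E12.5, and -0.17 across the whole interval.

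Ratios of counts between 2 genes of the same library do not depend on the scaling between libraries, and they show how these transcripts moved against their binding partners. For every 100 counts of Mcl1, its partner Pmaip1 had 9.87, 5.27 and 5.60 counts at E10.5, 23.3, 21.8 and 21.4 at E11.5, and 7.40, 8.98 and 10.1 at E12.5. The E11.5 libraries stood more than 2-fold above every other library. For every 100 counts of Bcl2, Bcl2l11 had 256, 342 and 225 counts at E10.5, 121, 156 and 136 at E11.5, and 89.8, 95.3 and 99.1 at E12.5. The 3 stages did not overlap, and the mean went from 274 to 94.7. Against the more abundant Mcl1 the difference was smaller, with means of 27.1, 21.9 and 18.03 counts of Bcl2l11 per 100 of Mcl1, and the E11.5 and E12.5 libraries overlapped. Bax had 204 to 305 counts per 100 of Bcl2 in the E10.5 libraries, 116 to 162 at E11.5 and 116 to 245 at E12.5, and the E12.5 libraries overlapped both other stages. The ratios are given as a description, without a test, and they reuse the changes of single genes given above. A ratio of read counts is no ratio of protein, and counts were not scaled for gene length here.

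**Figure D4:**
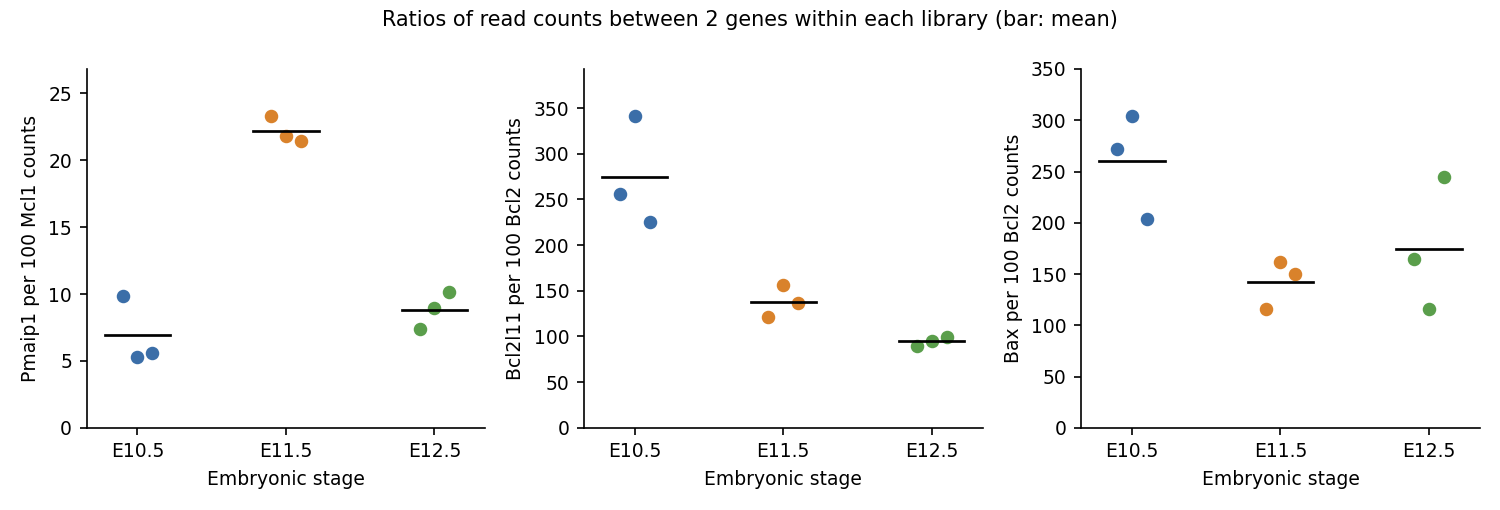
Counts of Pmaip1 per 100 counts of Mcl1, of Bcl2l11 per 100 of Bcl2 and of Bax per 100 of Bcl2 in each library (points) by stage, with bars at the mean of 3 libraries and axes from 0. Pmaip1 over Mcl1 peaks at E11.5 with a mean of 22.2, Bcl2l11 over Bcl2 goes from a mean of 274 at E10.5 to 94.7 at E12.5, and Bax over Bcl2 overlaps between E12.5 and both other stages.

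Of 70 further genes of the death pathway, 62 could be tested over the 3 stages, and 16 were called, next to 28.3% of all genes. In E11.5 vs. E10.5, 3 were higher and 2 lower of 60 tested. In E12.5 vs. E11.5, 7 were higher and 1 lower of 62. Across the whole interval, 10 were higher and 4 lower of 62. Over all genes, the shares were 6.19% higher and 5.58% lower, then 7.61% and 4.57%, then 14.0% and 10.5%. Against E10.5, the higher genes include Hrk, Fas and Trp73, which passed the filter on low counts only through the later stages where they were higher, so that their calls carry little weight. The same holds for Fas among the higher genes in E12.5 vs. E11.5. It was at 0.37 to 0.97 CPM at E11.5 and passed only through E12.5. Without E10.5 replicate 3, the first of these counts was 31 genes called, and without E12.5 replicate 2, the second was 23, in fits that called 39.6% and 30.8% of all genes. Their median log2 fold changes were -0.03, 0.05 and 0.01. Among the closest relatives, the pro-survival genes Bcl2l10, Bcl2a1a, Bcl2a1b and Bcl2a1d had at most 3 counts in any library, and Bcl2l2 (Bcl-w) was steady at 14.6 to 20.5 CPM. The effector relative Bok was at 14.4 to 16.8 CPM at E11.5 and 18.1 to 30.8 CPM at E12.5 (edgeR adjusted p-value of 0.0726). Of the BH3-only relatives, Hrk was at a very low level, 0.19 to 0.41 CPM at E10.5 and 0.79 to 1.08 CPM at E12.5, and the test of the 3 stages did not call it (edgeR adjusted p-value of 0.0894). Bad differed over the 3 stages (edgeR adjusted p-value of 0.0463), with 18.5 to 19.8 CPM at E10.5 and 20.6 to 39.9 CPM at E12.5, and Bik was near 1 CPM at all stages. Bcl2l13, a mitochondrial relative that acts in mitophagy, fell by 0.89 on the log2 scale from E10.5 to E12.5 (edgeR adjusted p-value of 0.00763).

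Downstream of the family, none of the 9 genes of mitochondrial release and the apoptosome was called in any comparison by edgeR. Cycs (cytochrome c) and Apaf1 were among these 9. Over all genes, 11.8%, 12.2% and 24.6% were called in the 3 comparisons. At an unadjusted p-value under 0.05, 3, 1 and 1 of the 9 passed, next to 27.9%, 29.6% and 37.2% of all genes. Of the caspase genes, the initiator Casp8 rose from a mean of 12.2 CPM at E10.5 to 22.3 CPM at E12.5, a log2 fold change of 0.88 (edgeR adjusted p-value of 0.0139). Of 5 caspase inhibitors, Birc3 alone was called over the 3 stages, next to 28.3% of all genes. It was at 6.999 to 8.01 CPM at E10.5 and 9.75 to 12.2 CPM at E12.5. In the death receptor route, Tnfrsf1a, a receptor for TNF, rose by 0.87 from E10.5 to E12.5 on the log2 scale (edgeR adjusted p-value of 0.00936). Fas had at most 7 counts in an E10.5 library, at most 0.416 CPM, and 1.18 to 2.44 CPM at E12.5. The genes of the ligands Fasl, Tnf and Tnfsf10 had at most 4 counts in any library.

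Upstream, Trp53 was called in no comparison, with mean levels of 246, 209 and 194 CPM. Of the 15 genes of p53 and its targets, 2 were higher (Sesn1 and Trp73) and 2 lower (Cdkn1a and Aen) in E11.5 vs. E10.5, where 11.8% of all genes were called. The cell cycle inhibitor gene Cdkn1a had the opposite course to Pmaip1, with 16.8 to 26.1 CPM at E10.5, 9.90 to 13.2 CPM at E11.5 and 20.8 to 28.2 CPM at E12.5, and both steps were called (edgeR adjusted p-values of 0.0464 and 0.00297). From E11.5 to E12.5, 4 became higher (Cdkn1a, Perp, Phlda3 and Trp73) and none lower, next to 7.61% and 4.57% of all genes. Over E10.5 to E12.5, Sesn1, Phlda3 and Trp73 were higher, and Eda2r and Aen were lower. Trp73 had means of 1.05 CPM at E10.5 and 9.64 CPM at E12.5. In both comparisons against E10.5 it passed the filter on low counts only through the later stage. Its calls as higher there carry little weight. Of all genes, 14.0% were called higher and 10.5% lower over that interval. Of the regulators of BH3-only genes, the FoxO factor Foxo3 rose from a mean of 46.3 to 79.6 CPM from E10.5 to E12.5 (edgeR adjusted p-value of 0.00933) while Bcl2l11 fell, and the stress factor Ddit3 (CHOP) rose from 6.55 to 11.4 CPM (edgeR adjusted p-value of 0.0263).

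**Figure D5:**
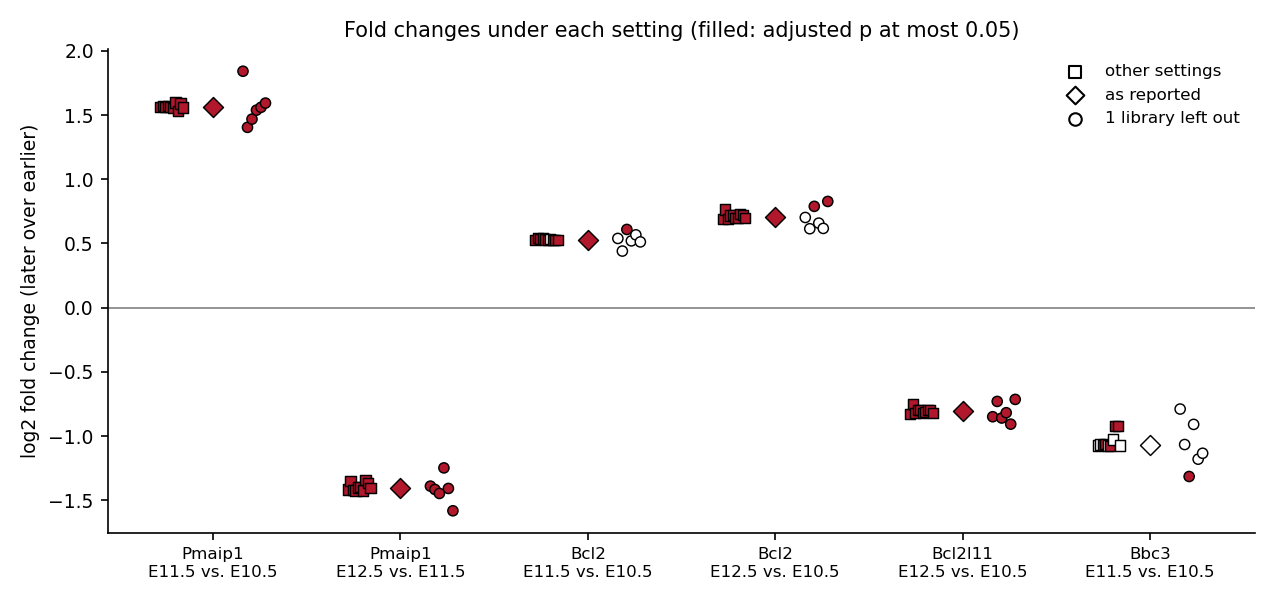
Log2 fold change of 4 genes in the comparisons named on the x axis, as reported (diamonds), under other settings (squares) and with 1 library left out (circles), filled where the adjusted p-value was at most 0.05. All symbols of Pmaip1 and Bcl2l11 are filled, while Bcl2 has 5 open circles from E10.5 to E11.5 and 4 from E10.5 to E12.5, and the reported value of Bbc3 (-1.07) is open.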

How the data were processed

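RNA-seq libraries of lambdoidal junction tissue, 3 per stage, were analysed. Per the labels and methods, the authors mapped reads to mm10 with HISAT2 2.0.5, and gene counts came from featureCounts, whose strand setting is not given in the sources used here. The deposited counts are raw whole numbers of reads, not normalized. The deposited FPKM values, computed by the authors from counts and gene length, served only to compare levels between genes. Fold change and p-value columns of the authors' own comparisons were not used. The gene length column deposited with them is in bases.

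Counts were filtered with filterByExpr, scaled by TMM and tested with edgeR 4.0.16 (glmQLFit, glmQLFTest, R 4.3.3), each pair of stages on its 6 libraries and the 3 stages on all 9, with Benjamini-Hochberg adjustment over all genes tested. CPM used TMM-scaled library sizes of all 9 libraries. SE is the size of the log2 difference over the root of the F statistic. Alternatives were DESeq2 1.42.0, its size factors, upper quartile scaling, other filters, a GC offset, a replicate block, a fit on all 9 libraries, and leaving out hemoglobin genes or each library. The libraries of a stage differed beyond counting noise in all 9 pairs, and p-values measure the spread between these pools. Of the table's identifiers, 54409 were found in GENCODE vM21. Members and gene lists were chosen with earlier results of these data known. Beside the 10 members, the text names pathway genes that were DEGs or had the 3 smallest p-values of their list over the 3 stages, the 5 genes most like Pmaip1, and others chosen after their values were seen (Trp53, Apaf1, Sesn1, Perp, ligands and relatives at or near 0). Some genes of these lists are not reported here by name.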

Additional observations from a re-analysis of the deposited data

How the results depend on the processing

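The changes of Pmaip1 in both successive comparisons and of Bcl2l11 from E10.5 to E12.5 kept their direction and passed the threshold under every alternative. In E11.5 vs. E10.5, the number of the 10 genes called (2) was 4 with DESeq2, 4 with a GC offset, 1 with a replicate block, and 4 with both a GC offset and a replicate block. It was 1 to 6 when 1 library was left out. The number of DEGs among them (1) was 2 with DESeq2, with all genes of at least 1 count, and with the fit on all 9 libraries, and 1 to 2 with 1 library left out. In E12.5 vs. E11.5, 1 to 4 were called with 1 library left out. In E12.5 vs. E10.5, 4 were called with the GC offset and replicate block together, and 1 to 4 with 1 library left out. Over the 3 stages, 3 were called with the replicate block, and 2 to 7 with 1 library left out. With the block alone, Bcl2 had a log2 fold change of 0.53 in E11.5 vs. E10.5 and an edgeR adjusted p-value of 0.0733. No pairing by replicate number was seen. The deviations of same-numbered libraries correlated at -0.15 to 0.22, and those of other-numbered libraries at -0.22 to 0.22. With 3 libraries per stage, a weak pairing could be missed. The pathway genes called in E11.5 vs. E10.5 (5) were 8 with DESeq2, 3 with at least 10 counts in every library, 2 with the replicate block, 17 with the GC offset, 12 with both, and 0 to 31 with 1 library left out, 31 being without E10.5 replicate 3. From E11.5 to E12.5 (8) they were 13 with all genes of at least 1 count, 3 with the fit on all 9 libraries, and 2 to 23 with 1 library left out, 23 being without E12.5 replicate 2. In E12.5 vs. E10.5 (14) they were 26 with the GC offset and block together and 7 to 17 with 1 library left out. Bid changed sign in E12.5 vs. E11.5, from a log2 fold change of 0.0011 to -0.012 with DESeq2 size factors, -0.016 with DESeq2, -0.020 with all genes of at least 1 count, -0.012 with the replicate block, -0.0062 with the GC offset and -0.018 with both, and lay at -0.15 to 0.16 with 1 library left out. Bax changed sign in E12.5 vs. E10.5, to -0.15 with the GC offset and -0.14 with block and offset, and lay at -0.053 to 0.25 with 1 library left out. With 1 library left out, E12.5 vs. E10.5 gave -0.47 to 0.0055 for Bid and -0.0079 to 0.43 for Pmaip1. None of these sign changes concerned a called difference. A fit with a library left out has fewer samples, and other causes of these shifts were not tested.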
